A study of Mus musculus with 20 samples.

Results

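The Fc gamma receptors bind the constant part of immunoglobulin G, and most of them signal through adaptors that carry an immunoreceptor tyrosine-based activation motif (ITAM). The 8 genes described here are the receptors Fcgr1, Fcgr2b, Fcgr3 and Fcgr4, the ITAM adaptors Fcer1g and Tyrobp, the lipid-sensing receptor Trem2 and the kinase Syk. They were chosen by name, with earlier results of these data known. They were found in both deposited count tables and make up 8 of the 39896 gene symbols of the tables together. RNA was sequenced from whole kidneys of aged mice after bone marrow transplantation; the sources used here do not give the age, the sex, the dose or how the donor marrow was made. One table holds 6 mice with a Control blood system and 6 with a LOY blood system, LOY standing for a Y chromosome lost in the blood-forming cells. The other table holds 8 mice that all had a LOY blood system, of which 4 were given a control compound and 4 the senolytic ABT263 (ABT-263, navitoclax), an inhibitor of anti-apoptotic BCL-2 family proteins. Each kidney is 1 library, and no library is in both tables.

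Fcgr1, Fcgr3 and Fcgr4 are the activating Fc gamma receptors of the mouse. They need the FcR gamma chain, encoded by Fcer1g, to reach the cell surface and to signal, and when immune complexes cross-link them the ITAM of that chain is phosphorylated by Src-family kinases and binds Syk. Fcgr2b carries an inhibitory motif in its own tail instead, recruits the phosphatase SHIP1 and sets the threshold for activation in the same cells; in several tissues it is also made by sinusoidal and other endothelium. Tyrobp, known as DAP12, plays the adaptor's part for TREM2 and other receptors of macrophages and natural killer cells. In the kidney these genes are known from resident and infiltrating macrophages and from immune-complex glomerulonephritis.

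In LOY kidneys Fcgr3, Fcer1g and Tyrobp rose by 2.21-, 2.23- and 2.32-fold, while Fcgr2b differed by 1.09-fold and did not pass the test. The promoters of the 4 receptors are shown so that the activating receptors can be set beside the inhibitory Fcgr2b. Of the 4 only Fcgr3 passed by edgeR, with a log2 fold change of 1.14. Fcgr1 was close to it, at 1.04 (adjusted p = 0.0543, edgeR), and was called by DESeq2 and voom. Those methods called 5.78% and 7.09% of all genes, against 1.18% by edgeR. Each sequence runs from 250 bases before to 50 bases after a RefSeq start site (GRCm38.p6) and is written 5′ to 3′ on the gene's strand. Capitals mark GAGGAA or its reverse complement TTCCTC, a form of the box bound by the myeloid factor PU.1. Only these exact letters were searched for, so other forms of the box are not marked or counted.
Fcgr3, chr1:171059354-171059653, minus strand: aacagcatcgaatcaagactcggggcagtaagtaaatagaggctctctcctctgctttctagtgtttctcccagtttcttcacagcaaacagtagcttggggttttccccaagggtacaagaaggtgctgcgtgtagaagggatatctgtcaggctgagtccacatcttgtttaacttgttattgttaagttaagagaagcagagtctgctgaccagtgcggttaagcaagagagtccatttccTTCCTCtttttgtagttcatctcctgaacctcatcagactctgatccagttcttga
Fcgr1, chr3:96293920-96294219, minus strand: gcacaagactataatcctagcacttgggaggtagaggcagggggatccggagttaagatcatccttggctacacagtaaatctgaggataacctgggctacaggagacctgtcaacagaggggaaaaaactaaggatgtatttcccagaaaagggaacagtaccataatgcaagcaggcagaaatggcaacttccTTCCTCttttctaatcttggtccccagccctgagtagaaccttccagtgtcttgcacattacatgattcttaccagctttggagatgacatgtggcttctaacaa
Fcgr4, chr1:171018676-171018975, plus strand: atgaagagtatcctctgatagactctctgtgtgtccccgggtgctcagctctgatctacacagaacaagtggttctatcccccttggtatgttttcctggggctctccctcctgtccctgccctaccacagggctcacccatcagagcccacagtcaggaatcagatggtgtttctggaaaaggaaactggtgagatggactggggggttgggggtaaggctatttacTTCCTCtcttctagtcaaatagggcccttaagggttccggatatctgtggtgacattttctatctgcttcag
Fcgr2b, chr1:170976022-170976321, minus strand: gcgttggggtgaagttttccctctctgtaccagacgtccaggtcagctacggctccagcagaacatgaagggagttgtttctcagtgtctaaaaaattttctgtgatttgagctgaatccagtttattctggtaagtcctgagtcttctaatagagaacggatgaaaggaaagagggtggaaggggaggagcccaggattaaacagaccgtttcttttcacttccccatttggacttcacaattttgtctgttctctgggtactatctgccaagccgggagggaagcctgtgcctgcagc
The 3 activating receptors each held 1 match on the reverse strand, starting at position -6 in Fcgr3, -55 in Fcgr1 and -22 in Fcgr4 relative to the start site. The Fcgr2b window held 0. Fcgr3 has a second start site, whose window is not printed here and held 1 match, at -15. Of 32851 mouse promoter windows of this length, 28.3% hold the motif on either strand, so a single match is common. Trem2 and the second of the 2 Syk start sites also held a match, at -40 and -9; Fcer1g and the first Syk start site held 0. Tyrobp was not analysed here for its promoter. A match describes letters in a window, and no match says nothing about what binds the gene.

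Fcgr2b (chr1:170958617-170976547), Fcgr4 (chr1:171018920-171029761), Fcgr3 (chr1:171051174-171064935) and Fcer1g (chr1:171229572-171234365) are neighbours on mouse chromosome 1. Fcgr1 lies at chr3:96282909-96293969, Tyrobp at chr7:30413760-30417585, Syk at chr13:52583173-52648792 and Trem2 at chr17:48346401-48354147, all in GRCm38 with the GENCODE M21 gene models. Fcgr2b and Fcgr3 have near-identical stretches: 44 windows of 100 bases occur in both, which is 0.753% of the Fcgr2b windows and 2.54% of those of Fcgr3. Fcgr2b also overlaps the antisense gene Gm38204 over 155 exonic bases, and if the authors' counting ignored strand, reads of this pair cannot be told apart.

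Total gene counts lay between 13332563 and 19386408 per kidney in the Control and LOY table and between 14587809 and 20791633 in the ABT263 table. All 8 genes passed the filter on low counts in both tables. The Y-linked genes Ddx3y, Uty, Kdm5d and Eif2s3y did not differ past the threshold between LOY and Control kidneys; their log2 fold changes were -0.18, -0.21, -0.36 and 0.00, and since most cells of a kidney are the host's, these values do not check the blood. Among 14978 tested genes 167 were higher and 9 lower in LOY kidneys at an adjusted p under 0.05 (edgeR's quasi-likelihood test with Benjamini-Hochberg adjustment). The labels' animal numbers split unevenly, with 5 of 6 Control but 2 of 6 LOY animals numbered above 10; no source used here says what the numbers stand for. In the ABT263 table all control-compound animals are numbered 10 or below and all ABT263 animals above 10, so there number and treatment cannot be told apart. The numbers 8, 9, 10, 16, 17 and 18 recur in both tables, and whether they mark the same mice is not stated.

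LOY and Control kidneys were compared to find which kidney transcripts differ when the blood system has lost the Y chromosome. Fcgr3, Fcer1g and Tyrobp passed the threshold, and each was higher in all 6 LOY kidneys than in any Control kidney. Syk showed the same separation with an adjusted p of 0.0508 by edgeR, and Fcgr1, Trem2 and Fcgr4 had fold changes of 2.05, 2.05 and 1.57 that did not pass. Thus 3 of 8 were called higher and 0 lower, against 1.11% and 0.0601% of all genes tested. At an unadjusted p under 0.05, 7 of 8 were higher and 0 lower, against 13.5% and 9.33% of all genes. In 4 of 8 every LOY kidney lay above every Control kidney and in 0 of 8 below, against 1.56% and 0.461% of all genes. All 8 had a positive log2 fold change, as did 52.3% of all genes. The median log2 fold change was 1.04 over the 8 genes and 0.02 over all genes. These shares are a description and not a test, because the 8 genes were chosen with earlier results of these data known. Whether more cells of a type or more RNA per cell sets a higher level cannot be told apart in whole kidneys.

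**Figure D1:**
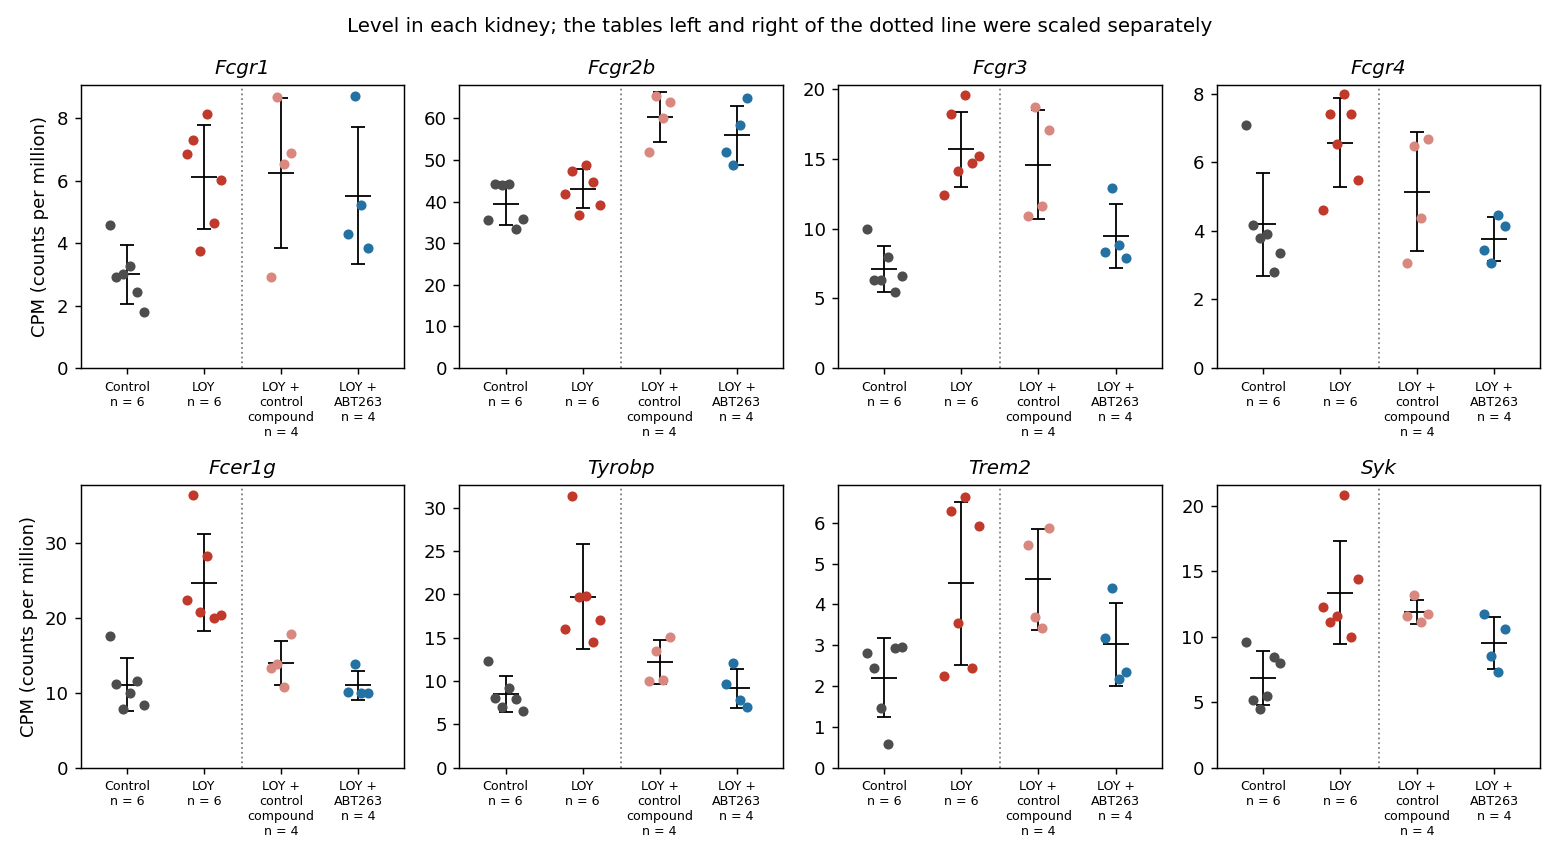
Level of each gene in each kidney, in CPM; points are kidneys, the long bar is the group mean and the whiskers are 1 SD (n = 6, 6, 4 and 4). Fcgr3, Fcer1g, Tyrobp and Syk show LOY points above all Control points, whereas the Fcgr2b points of the 2 groups share their range; the tables on either side of the dotted line were scaled separately and their levels are not compared.

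Among the activating receptors, Fcgr3, the low-affinity receptor for several immunoglobulin G subclasses, measured 5.43 counts per 1e6 counts (CPM) in the lowest, 6.47 in the median and 9.98 in the highest Control kidney. In LOY kidneys it measured 12.4, 14.9 and 19.6 CPM. The groups did not overlap, and Control animal 3 and LOY animal 10 were the highest of their groups. The mean went from 7.10 ± 1.63 to 15.7 ± 2.69 CPM (SD, n = 6 each), a log2 fold change of 1.14 ± 0.17 (SE; adjusted p = 0.0166, edgeR). Its 95% interval ran from 0.78 to 1.50.

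Fcgr1, the high-affinity receptor that also binds monomeric immunoglobulin G, lay between 1.80 and 4.58 CPM in Control kidneys, with a median of 2.96. In LOY kidneys it lay between 3.76 and 8.16 CPM with a median of 6.44. The groups overlapped in 1 LOY kidney, animal 9, which lay below Control animal 3. Its log2 fold change was 1.04 ± 0.25 with an interval of 0.51 to 1.56 (adjusted p = 0.0543, edgeR). These levels rest on 31 to 62 counts per Control kidney and 53 to 144 per LOY kidney.

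Fcgr4, an activating receptor for immunoglobulin G2 subclasses on monocytes, macrophages and neutrophils, measured 2.79, 3.86 and 7.10 CPM in the lowest, median and highest Control kidney and 4.62, 6.96 and 7.99 CPM in LOY kidneys. Control animal 3, at 7.10 CPM, lay above the LOY animals 5, 9 and 18. Its log2 fold change of 0.65 ± 0.23 did not pass (adjusted p = 0.145, edgeR; 95% interval 0.17 to 1.13).

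Fcgr2b, the inhibitory receptor, had the most counts of the 8 genes, with 456 to 676 per Control kidney and 518 to 864 per LOY kidney. It measured 33.4, 39.8 and 44.2 CPM in the lowest, median and highest Control kidney. In LOY kidneys it measured 36.8, 43.2 and 48.9 CPM. The groups overlapped widely, with 3 of 6 LOY kidneys above every Control kidney. The mean was 39.5 ± 5.05 CPM in Control and 43.1 ± 4.74 CPM in LOY kidneys, a log2 fold change of 0.13 ± 0.11 (adjusted p = 0.472, edgeR). The 95% interval of -0.10 to 0.36 ends below the lower bound of the interval of Fcgr3.

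The activating receptors were therefore set against Fcgr2b within each kidney, which removes the scaling between libraries. The Fcgr3 to Fcgr2b ratio of CPM, from 0.146 to 0.283 in Control kidneys, was 0.299 to 0.402 in LOY kidneys, and all 6 LOY kidneys lay above all Control kidneys. On the log2 scale the mean ratio moved from -2.47 ± 0.35 to -1.46 ± 0.17, a difference of 1.01 (exact two-sided permutation test over 924 splits, p = 0.00216, the smallest this design gives; 0.0260 adjusted over 12 ratio tests). For Fcgr1 over Fcgr2b the difference was 0.88 (exact permutation p = 0.00649, adjusted 0.0390), with 4 of 6 LOY kidneys above every Control kidney. For Fcgr4 over Fcgr2b it was 0.54 and did not pass (exact permutation p = 0.0433, adjusted 0.173). These ratios were chosen with the fold changes known and use the same counts.

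The ratio calls were close to the threshold. With any 1 of the LOY animals 5, 8, 10 and 18 left out, the adjusted exact permutation p was 0.0519 for both the Fcgr3 and the Fcgr1 ratio, with log2 differences between 0.98 and 1.07 for Fcgr3. Without any 1 of the Control animals 11, 12, 13, 16 and 17 the Fcgr1 ratio had an adjusted p of 0.0649 to 0.0779 while the Fcgr3 ratio passed; without Control animal 3 the ratio of Fcgr4 passed as well (0.73, adjusted exact permutation p = 0.0173).

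**Figure D2:**
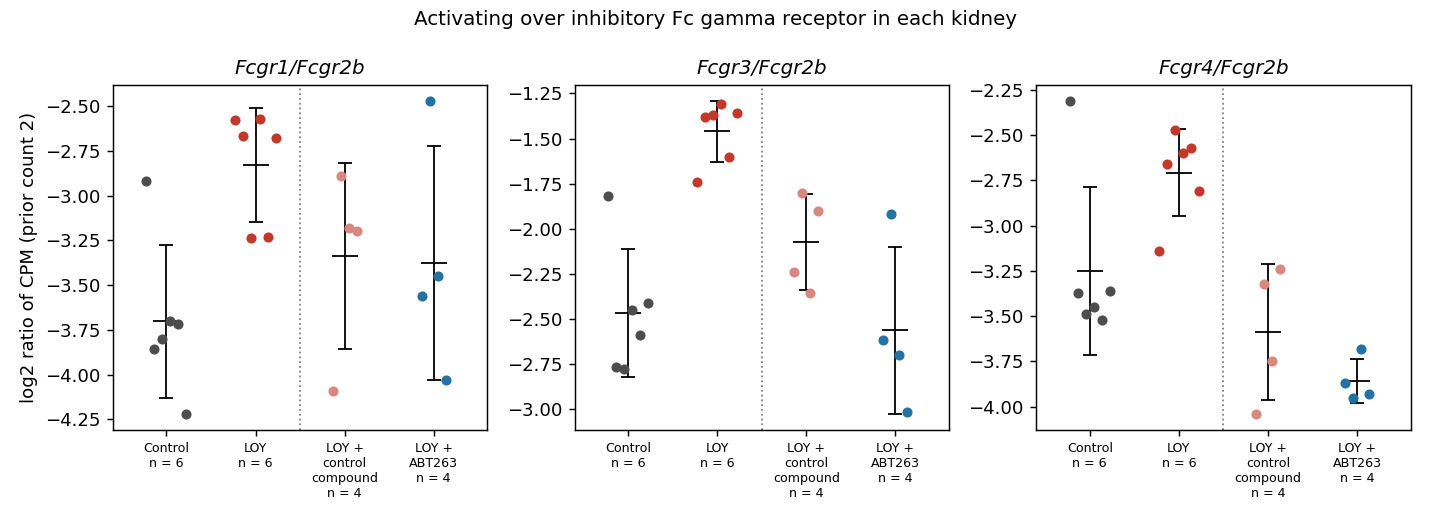
Log2 ratio of each activating receptor to Fcgr2b in each kidney, from CPM with a prior count of 2; points are kidneys, the long bar is the mean and whiskers are 1 SD, and tables on either side of the dotted line were scaled separately. The Fcgr3 ratio runs from -2.78 to -1.82 in Control and from -1.74 to -1.31 in LOY kidneys, and the kidney with the highest ratio in Control is animal 3 in all 3 panels.

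Both adaptors rose. Fcer1g, the FcR gamma chain, measured 7.83, 10.5 and 17.6 CPM in the lowest, median and highest Control kidney. In LOY kidneys it measured 20.0, 21.5 and 36.3 CPM, with no overlap and with LOY animals 8 and 10 the highest. The log2 fold change was 1.15 ± 0.21 (adjusted p = 0.0250, edgeR), from 11.1 ± 3.52 to 24.6 ± 6.48 CPM (SD, n = 6 each).

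Tyrobp, the adaptor DAP12, measured 6.50, 7.98 and 12.3 CPM in the lowest, median and highest Control kidney. In LOY kidneys it measured 14.5, 18.4 and 31.4 CPM, again without overlap; LOY animal 8 stood alone at 31.4, the next being 19.8. The log2 fold change was 1.21 ± 0.20 (adjusted p = 0.0250, edgeR), from 8.50 ± 2.09 to 19.7 ± 6.09 CPM. The 2 adaptors moved by similar amounts, the log2 ratio of Fcer1g to Tyrobp being 0.36 ± 0.18 in Control and 0.33 ± 0.18 in LOY kidneys (exact permutation p = 0.816).

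Trem2, the receptor for lipids and lipoproteins that pairs with DAP12, was the scarcest of the 8 genes, with 9 to 51 counts per Control kidney and 33 to 122 per LOY kidney. It measured 0.588, 2.63 and 2.96 CPM in the lowest, median and highest Control kidney and 2.24, 4.74 and 6.63 CPM in LOY kidneys. LOY animals 8, 10 and 18 measured 5.92 to 6.63 CPM and animal 9 measured 3.55, above every Control kidney; LOY animals 5 and 14 lay within the Control range. A log2 fold change of 1.04 ± 0.38 did not pass (adjusted p = 0.157, edgeR), and its interval of 0.23 to 1.85 was the widest of the 8. The log2 ratio of Trem2 to Tyrobp differed by -0.16 (exact permutation p = 0.723).

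Syk, the kinase that binds phosphorylated ITAMs, measured 4.50, 6.75 and 9.61 CPM in the lowest, median and highest Control kidney and 9.99, 12.0 and 20.8 CPM in LOY kidneys. Every LOY kidney lay above every Control kidney, by the narrow gap of 9.61 to 9.99 CPM, and LOY animal 10 was the highest. Syk had a log2 fold change of 0.96 ± 0.22, interval 0.48 to 1.44, with an adjusted p of 0.0508 (edgeR). The log2 ratio of Syk to Fcer1g differed by -0.20 (exact permutation p = 0.448).

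**Figure D3:**
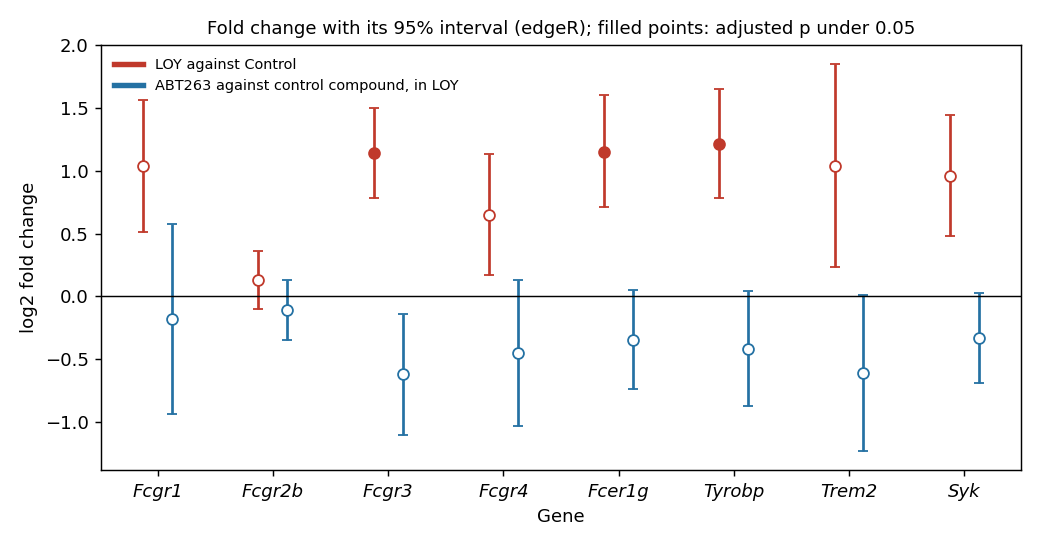
Log2 fold change of each gene with its 95% interval (edgeR), for LOY against Control kidneys (red, n = 6 each) and for ABT263 against the control compound in LOY mice (blue, n = 4 each); filled points have an adjusted p under 0.05. In red, Fcgr3, Fcer1g and Tyrobp are filled and Fcgr2b sits at 0.13; in blue all 8 points are below 0 and none is filled.

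Single kidneys decided the calls. Without any 1 of the Control animals 11, 12, 16 and 17 or LOY animal 10, 0 of the 8 genes passed, with adjusted p of 0.0599 to 0.0862 for Fcgr3, 0.0693 to 0.0997 for Fcer1g and 0.0682 to 0.0944 for Tyrobp (edgeR). In those refits 0 to 3 genes passed in the whole table. Without Control animal 13 only Fcgr3 passed, beside 0.0595% of all genes, and Fcer1g and Tyrobp had 0.0697 and 0.0667 (edgeR). Without Control animal 3, 6 of the 8 genes passed, beside 4.01% of all genes. In each of the 12 refits that left out 1 kidney, all 8 log2 fold changes were positive and 7 had an unadjusted p under 0.05. With a term for animal number above 10, the log2 fold changes of Fcgr3, Fcer1g and Tyrobp were 1.01, 0.89 and 0.95 and 0 genes of the table passed. Among the animals numbered above 10 alone, 5 Control and 2 LOY, these values were 1.19, 1.04 and 1.03. There these 3 genes and Syk passed, beside 2.89% of all genes. The other animals include 1 Control kidney and were not tested alone.

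**Figure D4:**
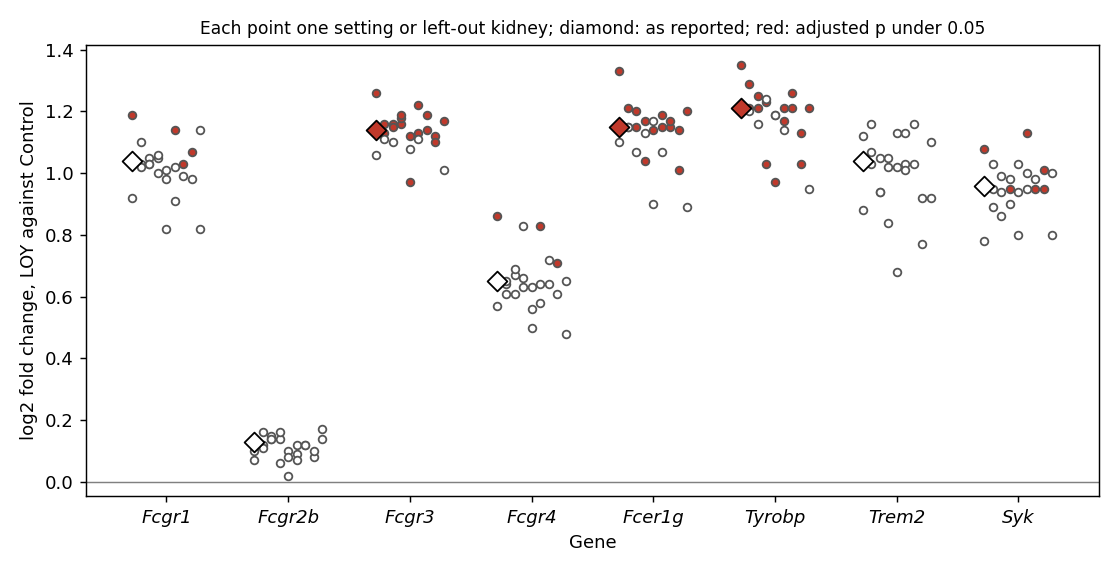
Log2 fold change of each gene in LOY against Control kidneys as reported (diamond) and in each other setting or with kidneys left out (points); red marks an adjusted p under 0.05. The values of Fcgr3 stay between 0.97 and 1.26 and those of Fcgr2b between 0.02 and 0.17, while Fcgr2b and Trem2 have no red point.

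Per kilobase of exon, Tyrobp and Fcer1g were the most abundant of the 8 genes in Control kidneys, with 12.8 ± 3.12 and 12.7 ± 4.02 CPM per kilobase (RPKM; SD, n = 6), and these neighbours did not differ beyond their spread. They were followed by Fcgr2b at 6.82 ± 0.874, Fcgr3 at 4.09 ± 0.940, Fcgr4 at 3.33 ± 1.20, Fcgr1 at 1.16 ± 0.361, Syk at 0.734 ± 0.224 and Trem2 at 0.445 ± 0.195 RPKM. The ranges of Fcgr3 and Fcgr4 overlapped, as did those of Fcgr1 and Syk and of Syk and Trem2. In LOY kidneys Fcgr3, at 9.04 ± 1.56 RPKM, stood above Fcgr2b, at 7.45 ± 0.819, with ranges of 7.14 to 11.3 and 6.35 to 8.45 that overlapped. That order depends on exon lengths of 1736 bases for Fcgr3 and 5790 for Fcgr2b. By CPM Fcgr2b was the higher, at 43.1 against 15.7. In the ABT263 table Fcgr2b came before Fcgr3 in both groups. Exon length was the union over all transcripts of a gene, so a gene whose kidneys use a short transcript is placed too low.

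The summed markers of blood cells are given beside these genes. The 15 macrophage and monocyte markers summed to 261 to 367 CPM in Control and 356 to 474 CPM in LOY kidneys; 6 of 15 rose, C1qa, C1qc, Mrc1, Ms4a7, Ly86 and Ccr2, against 1.11% of all genes, and 14 of 15 were positive with a median log2 fold change of 0.95. The 2 with the highest Control means, which weigh most in that sum, were not called. Csf1r averaged 104 CPM in Control and 107 CPM in LOY kidneys, and Mertk 63.0 and 49.0 CPM. Markers of T and natural killer cells summed to 6.97 to 12.0 CPM in Control and 12.8 to 23.4 CPM in LOY kidneys, with 1 of 5 tested called, Cd3d. Platelet markers summed to 15.0 to 21.2 and 15.8 to 41.7 CPM, with 1 of 2 called. Those of B cells, neutrophils and dendritic cells had 0 of 4, 0 of 2 and 0 of 5 called and sums that overlapped, of 2.81 to 9.74 and 4.66 to 17.6, 3.15 to 7.32 and 4.27 to 10.4, and 10.4 to 18.1 and 14.4 to 18.3 CPM. Mast cell markers, which matter here because mast cells use Fcer1g and Fcgr3, summed to at most 0.814 CPM in any Control or LOY kidney. The natural killer gene Ncr1 was at 0 counts in these kidneys. Kidney markers summed to 11200 to 16700 CPM in Control and 7450 to 13700 CPM in LOY kidneys, with 0 of 8 called and 3 positive. Slc34a1, which weighs most in that sum, averaged 6690 CPM in Control and 4730 CPM in LOY kidneys. The part of these cells in the 8 genes' values was not tested.

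The 8 genes were also set against the mean of 9 macrophage markers of the same kidney. Those markers moved unequally, with log2 fold changes of 1.32 for Cd68, 1.17 for C1qa, 1.05 for C1qc and 1.02 for Mrc1. The other values were 0.95 for C1qb, 0.77 for Adgre1, 0.75 for Cx3cr1, 0.05 for Csf1r and -0.36 for Mertk. A difference from their mean is therefore not a difference from each marker. Relative to that mean the log2 difference between LOY and Control kidneys was 0.40 for Fcgr3, 0.45 for Tyrobp and 0.42 for Fcer1g, and it was -0.61 for Fcgr2b. None of the 8 passed after adjustment over 16 tests (exact permutation; unadjusted p = 0.00433 for Fcgr3, 0.00866 for Fcgr2b, 0.0108 for Tyrobp and 0.0238 for Fcer1g, adjusted 0.0577, 0.0577, 0.0577 and 0.0952). With all 15 markers as the denominator Fcgr3 (0.35) and Fcgr2b (-0.66) both had an adjusted exact permutation p of 0.0346. The other differences were 0.27 for Fcgr1, 0.29 for Trem2, 0.22 for Syk and -0.07 for Fcgr4. Over all other settings and left-out kidneys the difference ran from 0.28 to 0.46 for Fcgr3 and from 0.11 to 0.54 for Tyrobp. For Fcer1g it ran from 0.14 to 0.49 and for Fcgr2b from -0.84 to -0.53.

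Likeness was measured as the root-mean-square difference of centred log2 CPM over the 12 kidneys, among 14388 genes. Nearest to Tyrobp was Sfpi1, the older symbol of Spi1, which encodes PU.1, at 0.12; C1qa and Hmha1 followed at 0.16, as did Fcer1g. Near to Fcer1g were Tyrobp at 0.16 and, outside the 8 genes, Coro1a at 0.18 and Rgs10 at 0.19. Nearest to Fcgr2b were Ptplb at 0.10 and 1110021L09Rik and Slc35b4 at 0.11, while the other 7 genes lay 0.43 to 0.88 from it. Sfpi1 itself rose, with a log2 fold change of 1.20 ± 0.23 (adjusted p = 0.0302, edgeR). These distances are a description, and the kidneys share their groups.

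Around the 8 genes, 126 other genes of the pathway were listed, of which 97 were tested in this table. Of these 20 rose and 0 fell, 78 were positive and the median log2 fold change was 0.64. The background of 1.11% called higher applies here too, and the lists were also chosen with earlier results of these data known. All LOY kidneys lay above all Control kidneys for 17 of the 97, against 1.56% of all genes.

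Of 11 tested other receptors that couple to ITAM adaptors, 2 rose. Cd300ld, a receptor of myeloid cells that pairs with the FcR gamma chain, rose by 0.98 ± 0.21 on the log2 scale (adjusted p = 0.0386, edgeR), and Itgb2, the integrin beta chain CD18, by 0.84 ± 0.17 (0.0343). Clec4n (dectin-2), with 1.94 ± 0.47, and Itgam, the integrin alpha chain CD11b, with 4.53 ± 0.812 CPM in Control and 9.04 ± 3.54 CPM in LOY kidneys, did not pass (both 0.0577). Of the 7 lymphocyte adaptors, Cd3d and Cd3g of the T cell receptor rose, by 1.43 ± 0.32 and 1.62 ± 0.36, while Cd247 and Cd3e had 1.37 ± 0.32 (adjusted p = 0.0506, edgeR) and 0.93 ± 0.35 (0.164). These T cell genes lie outside the Fc receptor pathway proper, and Cd3d and Cd3e are also among the T cell markers summed above.

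Of 33 kinases and effectors 7 rose. Lcp2, the scaffold SLP-76, rose by 0.96 ± 0.19 on the log2 scale (adjusted p = 0.0330, edgeR), Pik3r5, a regulatory subunit of PI3K gamma, by 1.04 ± 0.21, and Rac2, the GTPase of phagocyte oxidase and actin, by 1.18 ± 0.22. Coro1a and Arpc1b, which act on actin in phagocytosis, rose by 0.95 ± 0.21 and 0.83 ± 0.17, and Zap70, the T and natural killer cell relative of Syk, by 1.44 ± 0.30. Lyn, a Src-family kinase that phosphorylates ITAMs, had 0.00 ± 0.14. Vav1 and Pik3cd had 0.75 ± 0.20 and 0.59 ± 0.17 and did not pass (adjusted p = 0.0860 and 0.0916, edgeR).

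Inhibitors other than Fcgr2b were among the genes that rose, 4 of 23 tested. Pirb, a receptor with inhibitory motifs listed in this table under its older name Lilrb3, rose by 1.14 ± 0.21 on the log2 scale (adjusted p = 0.0269, edgeR). Lilrb4a, listed as Lilrb4, rose by 0.92 ± 0.18 and Clec12a, an inhibitory lectin of myeloid cells, by 1.02 ± 0.21. Ptprc, the phosphatase CD45 that also primes Src-family kinases, rose by 0.81 ± 0.14. Inpp5d, which encodes the SHIP1 that the Fcgr2b product recruits, had 0.63 ± 0.16 (adjusted p = 0.0697, edgeR), and Siglece and Clec4a2 had 1.15 ± 0.29 and 1.13 ± 0.26, none of them past the threshold.

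Among immunoglobulins and other Fc receptors 6 were tested and B2m rose, by 0.90 ± 0.16 (adjusted p = 0.0250, edgeR); B2m pairs with the neonatal Fc receptor and with MHC class I. Fcgrt, the neonatal Fc receptor itself, had -0.15 ± 0.11, Fcamr -0.99 ± 0.32 and Pigr, the epithelial carrier of polymeric immunoglobulin, -0.45 ± 0.21, none past the threshold (adjusted p of 0.401, 0.133 and 0.214, edgeR). Jchain, the joining chain of polymeric immunoglobulin, measured 37.9 ± 22.4 CPM in Control and 68.5 ± 32.6 CPM in LOY kidneys, a log2 fold change of 0.85 ± 0.41 that did not pass either (adjusted p = 0.227, edgeR). Trim21, the cytosolic antibody receptor, differed by 0.14 ± 0.14 (log2) and missed the threshold too (adjusted p = 0.540, edgeR). The genes of the immunoglobulin G heavy chains were not analysed here in this table. Of 17 tested genes that are ligands, sheddases or companions of TREM2 in macrophages, 4 rose. Spp1 (osteopontin), which injured tubules make as well, went from 1660 to 3940 CPM (1.25 ± 0.24), Lgals3 (galectin-3) had 1.22 ± 0.28, Ms4a7, also a macrophage marker, 1.19 ± 0.27 and Axl, a receptor for apoptotic cells, 0.54 ± 0.10. Apoe, a TREM2 ligand, had 0.61 ± 0.18 and did not pass (adjusted p = 0.105, edgeR).

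The pathway count rested on single kidneys too. It was 0 when any 1 of the Control animals 11, 12, 13, 16 and 17 or LOY animal 10 was left out, 10 when LOY animal 14 was, 13 when LOY animal 9 was and 33 when Control animal 3 was.

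**Figure D5:**
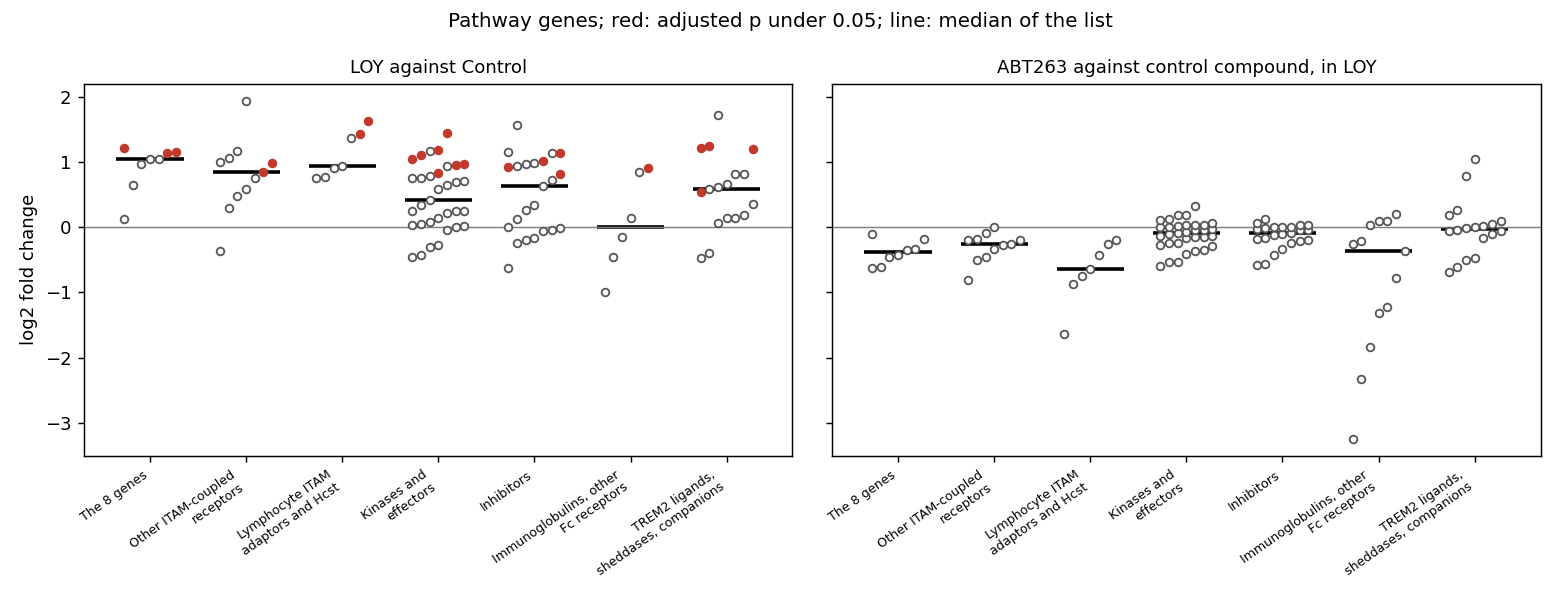
Log2 fold change of the 8 genes and of 6 lists of other pathway genes, for LOY against Control (left) and ABT263 against control compound in LOY mice (right); each point is a gene, red marks an adjusted p under 0.05 (edgeR) and the line is the list's median. On the left the median of the 8 genes is 1.04, and those of the 6 lists run from -0.01 for immunoglobulins and other Fc receptors to 0.93 for lymphocyte adaptors. On the right every median is below 0 and no gene is red.

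The second table asks what ABT263 changes in kidneys of LOY mice. None of the 8 genes passed the threshold, and all 8 had lower means with ABT263, with log2 fold changes of -0.62 to -0.11. No gene of the 16956 tested passed by edgeR, in either direction (percent called 0), while 1002 had an unadjusted p under 0.05, DESeq2 called 44 and voom 11. At an unadjusted p under 0.05, 1 of the 8 was lower, Fcgr3, and 0 higher, against 2.96% and 2.95% of all genes. The groups overlapped for all 8, whereas ABT263 kidneys lay below all others in 2.25% of genes and above them in 2.04%. The median log2 fold change was -0.38 over the 8 genes and -0.00 over all genes, of which 50.6% were negative.

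Fcgr3 measured 10.9, 18.7, 11.6 and 17.1 CPM in the control-compound animals 6, 8, 9 and 10. With ABT263 it measured 8.31, 12.9, 8.85 and 7.87 CPM in animals 15, 16, 17 and 18. Of the ABT263 kidneys 3 lay below every control-compound kidney, and animal 16 lay within their range. The log2 fold change was -0.62 ± 0.22 (unadjusted p = 0.0164, adjusted p = 0.729, edgeR), with an interval of -1.10 to -0.14. The Fcgr3 to Fcgr2b ratio on the log2 scale was -2.08 ± 0.27 with the control compound and -2.57 ± 0.47 with ABT263 (SD, n = 4 each). Its difference of -0.49 did not pass (exact two-sided permutation p = 0.114; 70 splits cannot give less than 0.0286).

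Fcgr1 measured 2.93, 8.69, 6.54 and 6.88 CPM with the control compound and 4.29, 8.73, 5.23 and 3.86 CPM with ABT263, in the same order of animals. Its lowest and highest kidneys, animals 6 and 16, were in opposite groups, and the log2 fold change of -0.18 ± 0.34 became -0.49 without animal 16 and 0.02 without animal 8. Fcgr4 measured 3.05, 6.46, 4.38 and 6.68 CPM and 3.43, 3.06, 4.45 and 4.14 CPM (-0.45 ± 0.26). Animals 8 and 10 were the high ones of the control-compound group for both receptors.

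Fcgr2b measured 51.9, 65.3, 60.2 and 64.0 CPM with the control compound and 51.8, 48.9, 58.3 and 64.8 CPM with ABT263. Its groups covered nearly the same range, and the log2 fold change of -0.11 ± 0.11 had an interval of -0.35 to 0.13.

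The adaptor Fcer1g measured 13.3, 13.8, 10.7 and 17.8 CPM with the control compound and 10.1, 13.8, 9.94 and 10.0 CPM with ABT263 (-0.35 ± 0.18). Tyrobp measured 10.0, 13.5, 10.1 and 15.1 CPM and 9.69, 12.1, 7.76 and 6.97 CPM (-0.42 ± 0.21). In both, 3 of 4 ABT263 kidneys lay below every control-compound kidney and animal 16 did not. The intervals, -0.74 to 0.05 and -0.87 to 0.04, reached just past 0.

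Trem2 measured 5.46, 3.70, 3.42 and 5.88 CPM with the control compound and 3.17, 4.39, 2.17 and 2.35 CPM with ABT263 (-0.61 ± 0.28, interval -1.23 to 0.01). Syk measured 11.6, 13.2, 11.1 and 11.7 CPM and 11.7, 8.55, 7.30 and 10.6 CPM (-0.33 ± 0.16, interval -0.69 to 0.03). For both genes 3 of 4 ABT263 kidneys lay below every control-compound kidney, the exceptions being animal 16 for Trem2 and animal 15 for Syk. Relative to the 9 macrophage markers none of the 8 passed; Fcgr3 had -0.34 (exact permutation p = 0.0857, adjusted 0.274), and the markers themselves had a median log2 fold change of -0.31 over 15, with 0 called and sums of 361 to 550 and 356 to 439 CPM. Their part in these values was not tested.

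By profile over these 8 kidneys, Fcer1g was nearest to Kcnk1 and Cfp at 0.09 and C1qb at 0.10, and Tyrobp to Basp1, Nfam1 and Meis3 at 0.13, among 15505 genes. Fcgr2b was nearest to Zfp612, Ago3 and Ptcd3 at 0.06.

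Of the 126 other pathway genes 105 were tested with ABT263 and 0 passed; 30 were positive, the median was -0.13, and 11 were lower and 0 higher at an unadjusted p under 0.05. The shares over all genes were 2.96% lower and 2.95% higher. All ABT263 kidneys lay below all others for 9, against 2.25% of all genes, and 4 of the 9 were the immunoglobulin genes Igkc, Ighg2c, Ighm and Jchain. Of these only Ighg2c encodes a heavy chain of immunoglobulin G, the ligand of the Fc gamma receptors; Ighm and Jchain belong to immunoglobulin M and polymeric immunoglobulin. Igkc, the kappa light chain, measured 234 ± 52.1 CPM with the control compound and 65.3 ± 20.7 CPM with ABT263 (log2 fold change -1.84 ± 0.24, unadjusted p = 3.13e-05, adjusted p = 0.265, edgeR). Ighg2c measured 10.7 ± 6.19 and 1.10 ± 0.575 CPM (-3.24 ± 0.52, adjusted p = 0.327, edgeR), Ighm 235 ± 103 and 46.9 ± 23.4 CPM and Jchain 50.6 ± 16.2 and 20.5 ± 8.09 CPM (both adjusted p = 0.657, edgeR). The other immunoglobulin G genes overlapped between groups, Ighg2b at 19.0 ± 5.99 and 8.05 ± 8.47 CPM, Ighg1 at 6.87 ± 3.27 and 5.29 ± 3.67 and Ighg3 at 0.920 ± 0.686 and 0.931 ± 1.08. The 4 B cell markers, Cd79a among them, summed to 3.84 to 4.23 CPM with the control compound and 2.17 to 3.11 CPM with ABT263, and their part was not tested.

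In the other lists the values nearest to the threshold were those of Cd79a, the B cell receptor's ITAM chain (-1.63 ± 0.35, adjusted p = 0.536, edgeR), Ptpn22, a phosphatase that opposes ITAM kinases (-0.56 ± 0.18, 0.671), and Gpnmb, a gene of lipid-laden macrophages (-0.68 ± 0.24, 0.741). All 4 ABT263 kidneys lay below all others for each of these and for Pik3ap1 (-0.35 ± 0.16). Lcp2, Clec7a (dectin-1), Clec4n and Cd3e had -0.60 ± 0.26, -0.50 ± 0.21, -0.81 ± 0.39 and -0.87 ± 0.42 with groups that overlapped, each at an adjusted p of 0.827 (edgeR).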

How the data were processed

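Per the labels' protocols, total RNA of whole kidneys was sequenced by Novogene (Illumina NovaSeq X). The authors deposited whole-number read counts per gene in a table of 12 kidneys and a table of 8, with mm10 as the genome build per the submitters' processing notes; the sources used here name no aligner, counting program, annotation or strand setting. Values summed to different totals per kidney and were used as counts. An entry for reads without a gene (0.223% to 0.401% of counts, in the first table only) was left out, and older symbols were matched through RefSeq synonyms.

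Each table was fitted alone in R 4.3.3. In edgeR 4.0.16, filterByExpr (10 counts at least, 15 in total) chose the genes, TMM gave the scaling, and a robust quasi-likelihood F test was adjusted by Benjamini-Hochberg over all tested genes, with a threshold of 0.05. This left 14978 and 16956 tested genes. The SE was taken as the size of the fold change on the log2 scale divided by the root of F. CPM use TMM-scaled totals, and RPKM use union exon lengths of GENCODE M21. Ratios are per kidney with a prior count of 2. The scripts were checked on simulated counts. Alternatives were other scalings and filters, DESeq2 1.42.0, voom with quality weights in limma 3.58.1, left-out kidneys, animal number and other denominators.

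The 8 genes, the lists, the ratios and the tests were chosen with earlier results of these data known. Named were all 8 genes; of the other pathway genes those past the threshold, else the 2 of smallest p per list; and the 3 nearest profiles to Fcer1g, Tyrobp and Fcgr2b. A few genes that this rule would name are not reported here. Fcgrt, Lyn, Inpp5d, Apoe, Jchain, Trim21, Cd3d, the overlapping immunoglobulin genes and some others were named after their values were seen. Each library is 1 animal per the labels; nothing more is stated on how the animals were grouped, so p-values measure the spread between these kidneys.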

Additional observations from a re-analysis of the deposited data

Results flagged for a closer look

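Of 32 groups of CPM values tested, each being 1 of the 8 genes in 1 group of kidneys, 3 held a kidney far from the others by Dixon's test; chance flags about 1 group in 20. Fcgr4 measured 7.10 CPM in Control animal 3, where the next Control kidney measured 4.16. Tyrobp measured 31.4 CPM in LOY animal 8, where the next LOY kidney measured 19.8. Fcer1g measured 13.8 CPM in ABT263 animal 16, where the next ABT263 kidney measured 10.1.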

How the results depend on the processing

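For LOY against Control, 3 of the 8 genes were called, beside 1.18% of all genes. DESeq2 called 5 (5.78% of all genes) and voom 6 (7.09%). A term for animal number above 10 called 0 (0% of all genes). Leaving out LOY animal 8 with Control animal 3 called 6 (7.47%). Leaving out 1 kidney in turn gave 0 to 6, beside 0% to 4.01% of all genes. The 20 other pathway genes became 13 with library totals alone (0.701% of all genes), 37 with DESeq2 (36 higher, 1 lower) and 37 with voom. Their count was 0 with the animal-number term and 1 without LOY animals 8 and 10 (0.192% of all genes). It was 37 without LOY animal 8 and Control animal 3, and 0 to 33 with 1 kidney left out. For ABT263 the 0 called genes of the 8 became 1 without control-compound animal 6 and ABT263 animal 16, a pair picked with results known. That gene was Fcgr3 (-0.92, adjusted p = 0.0102, edgeR), and 388 genes, 2.26% of all tested, passed in the same refit. With 1 kidney left out the count of the 8 stayed 0. The 0 other pathway genes became 4 with DESeq2 (0.259% of all genes), 1 with voom (0.0649%) and 3 without that pair (2.26%). With 1 kidney left out they numbered 0 to 1, beside 0% to 0.0522% of all genes. The 2 LOY ratios called became 0 in the animals numbered above 10 alone, where the smallest possible p of 0.0476 cannot pass once adjusted. They also became 0 without LOY animals 8 and 10 (Fcgr3/Fcgr2b 0.95, adjusted exact permutation p = 0.0571). Fewer kidneys leave fewer splits there, and 1 ratio alone at the smallest possible p cannot pass once adjusted. With 1 kidney left out the count was 0 to 3. The 0 ratios to macrophage markers called in LOY became 2 with the full marker list and 0 to 1 with 1 kidney left out. The cause of these changes was not tested.

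Values that crossed 0 were small. In the animals numbered above 10 alone the LOY ratios Fcer1g/Tyrobp and Trem2/Tyrobp were 0.03 and 0.00. With 1 kidney left out they ran from -0.07 to 0.03 and from -0.49 to 0.02; to macrophage markers, LOY Trem2 ran from -0.05 to 0.46 and Fcgr4 from -0.14 to 0.01. With ABT263, Fcgr1 ran from -0.49 to 0.02, Fcgr1/Fcgr2b from -0.34 to 0.18, Syk/Fcer1g from -0.15 to 0.15, and to macrophage markers Fcgr1 from -0.14 to 0.28, Fcgr4 from -0.28 to 0.01 and Syk from -0.18 to 0.04. No paired analysis was possible because the groups compared share no animal number.

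Trem2, with as few as 9 counts in a kidney, and Fcgr1 are the least precise of the 8 genes. The tables list some genes differently (C1qb 5.39 CPM in Control and 64.3 with the control compound), so levels were not compared across them.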
